A study of Homo sapiens with 6 samples.

Results

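The HSP70 chaperone family was followed in TPC-1, a cell line established from human papillary thyroid cancer, after knockdown of SMAD3, a nuclear mediator of TGF-beta and activin signalling. Of 10 listed HSP70 genes, 9 had a probe set that the platform's gene table pairs with a single symbol, and these 9 are the genes described here, out of 33458 genes named in this way. They are HSPA13, HSPA5, HYOU1, HSPA2, HSPA4, HSPA4L, HSPA14, HSPA9 and HSPA12A. HSPA8, the constitutive cytosolic HSP70, was not analysed here because its listed probe set carries the names of small nucleolar RNA genes as well. Where a gene had several probe sets, the one with the highest mean over the 6 arrays was used. The family was chosen by the measured differences between si-SMAD3 and si-Control, in which HSPA13 had low values after knockdown, and the probe sets were selected on their mean levels. Differences between the groups are therefore given for these genes as a description, without a test.

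There were 3 arrays from cells transfected with si-SMAD3 and 3 from cells transfected with si-Control, with no other treatment named in the labels, and arrays with the same replicate number are taken as a pair from the same experiment. Each well, at about 85% confluence, received 25 pmol of siRNA with 4.5 ul of a lipid reagent, and RNA was taken at 24 h. The labels do not say how many siRNA sequences si-SMAD3 holds, and the cells are a single line. Values are log2 levels made by the authors with RMA, a method that equalizes the arrays. SMAD3 itself was at 14.36 ± 0.27 with si-Control and 10.29 ± 0.28 with si-SMAD3 (SD, n = 3), a difference of -4.06 with an adjusted p of 0.00044 by limma over 20590 genes, and it was the only gene past the threshold of 0.05 (0.00486% of those tested). With an intensity trend and robust variance 5 genes passed, and without both replicate 3 arrays 0 passed. On the first principal component, which held 29.3% of the variance, both replicate 2 arrays (23.6 in si-Control and 39.5 in si-SMAD3) stood apart from the other 4 arrays (-28.1 to -6.15). Among thyroid markers PAX8 was well expressed, with a mean log2 level of 13.63, and FOXE1 was at 6.98. The other 5 of the 7 named markers, TG, TSHR, SLC5A5, SLC26A4 and NKX2-1, had means below the filter. This filter, 3.93, was the median of all probe sets. Of the 6 epithelial markers the keratin genes KRT8 (15.03), KRT18 (13.62), KRT7 (7.87) and KRT19 (5.07) were above the filter, and the adhesion genes CDH1 (3.11) and EPCAM (3.47) below it. All 4 fibroblast markers were above it, at means of 3.95 for PDGFRB, 4.51 for DCN, 6.59 for COL1A2 and 8.51 for COL1A1. The mean level of the immune markers lay between 3.79 and 4.51 on the 6 arrays and that of the endothelial markers between 3.47 and 3.81. Of the immune markers, PTPRC (3.96) and CD14 (4.22) were above the filter and CD3E (3.91) below it. Of the endothelial markers, VWF (4.21) was above it, and CDH5 (3.76), PECAM1 (3.45) and KDR (3.05) below it. Since the RNA comes from whole wells, fewer cells of a kind and less RNA per cell cannot be told apart.

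HSP70 proteins are ATP-driven chaperones. With ATP bound they hold an unfolded stretch of a client loosely, J-domain proteins deliver the client and trigger ATP hydrolysis, which closes the grip, and nucleotide exchange factors release ADP so that the cycle can start again. The family has members for separate compartments: HSPA5 in the lumen of the endoplasmic reticulum (ER), HSPA9 in mitochondria, and HSPA8 and HSPA2 in the cytosol, while HSPA4, HSPA4L and HYOU1 are larger relatives that act mainly as exchange factors for the others.

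The stretch of 250 bases before the transcription start is shown for the 3 ER-associated genes, HSPA13, HSPA5 and HYOU1. HSPA13 had the largest difference between the groups. In all 3 genes replicate 3 was highest in both groups, as it was in HSPA14 and in 12.6% of all genes tested. The sequences are RefSeq's for GRCh38.p14, 5′ to 3′ on the gene's strand. Capitals mark ER stress response elements (CCAAT and CCACG with 9 free bases between them, the site of NF-Y and ATF6, or the second form, ATTGG and CCACG with 1 free base between them) and single CCAAT boxes, on either strand, and the second form includes a CCAAT box.
HSPA13, chr21:14383147-14383396, minus strand: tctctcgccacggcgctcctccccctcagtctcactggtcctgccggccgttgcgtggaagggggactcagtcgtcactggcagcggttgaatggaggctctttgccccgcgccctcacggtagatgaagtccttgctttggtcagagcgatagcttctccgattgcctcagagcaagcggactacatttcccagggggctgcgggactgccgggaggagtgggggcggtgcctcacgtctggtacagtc
HSPA5, chr9:125241344-125241593, minus strand: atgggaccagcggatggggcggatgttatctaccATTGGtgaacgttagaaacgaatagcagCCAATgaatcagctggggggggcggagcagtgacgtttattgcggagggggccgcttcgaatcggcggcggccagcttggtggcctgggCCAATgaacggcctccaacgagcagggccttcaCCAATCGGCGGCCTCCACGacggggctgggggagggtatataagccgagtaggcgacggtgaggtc
HYOU1, chr11:119057206-119057455, minus strand: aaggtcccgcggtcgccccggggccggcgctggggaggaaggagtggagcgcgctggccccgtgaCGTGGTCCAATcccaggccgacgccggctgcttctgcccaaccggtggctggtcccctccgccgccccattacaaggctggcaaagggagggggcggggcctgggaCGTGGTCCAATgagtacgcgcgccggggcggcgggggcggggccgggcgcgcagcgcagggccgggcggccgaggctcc

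The HSPA5 stretch held 1 match to the first form, starting 66 bases before the start, and 4 CCAAT boxes in all. HYOU1 held the second form at 2 places, starting 185 and 79 bases before the start. Over 35116 RefSeq stretches of the same length, 0.074% held the first form and 0.0513% the second. The HSPA13 stretch held neither, and no CCAAT box, a motif found in 32.0% of all stretches. The SMAD palindrome GTCTAGAC was in none of the 12 stretches of the 9 family genes in the table (0.182% of all stretches). These 9 include HSPA8 but not HSPA14, for which no stretch was at hand. CAGAC, the short SMAD motif, was in 4 of the 12, HSPA13 among them, against 38.0% of all stretches. A match is a match of letters only, and its absence says only that these letters are not in this stretch.

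HSPA13 had the largest difference of the 9 genes. It encodes a microsome-associated HSP70 that has the ATPase domain and lacks the peptide-binding part of its relatives. Its log2 level was 11.39, 11.33 and 11.46 in si-Control replicates 1 to 3, and 9.89, 10.27 and 10.40 in si-SMAD3 replicates 1 to 3. Every si-SMAD3 array lay below every si-Control array, and the distance between the groups exceeded the spread within either. The group means were 11.39 ± 0.07 and 10.19 ± 0.26 (SD, n = 3), a difference of -1.21 (SE 0.20), which on the scale of these arrays is 2.31-fold lower. Within the experiments it was -1.49, -1.06 and -1.07. Leaving out both replicate 2 arrays gave -1.28.

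HSPA5 (BiP, or GRP78) is the main HSP70 of the ER lumen and a classical reporter of the unfolded protein response. Its log2 level was 16.84, 16.76 and 17.23 in si-Control replicates 1 to 3 and 16.85, 16.88 and 17.42 in si-SMAD3 replicates 1 to 3. The groups overlapped, and the highest array of each group was replicate 3. The means were 16.95 ± 0.25 and 17.05 ± 0.32 (SD, n = 3), a difference of 0.10 (SE 0.23), smaller than the spread within either group. Within the experiments it was 0.00, 0.12 and 0.18.

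HYOU1 (GRP170) is an exchange factor for HSPA5. Its log2 level was 13.31, 13.36 and 14.17 in si-Control and 13.43, 13.60 and 13.88 in si-SMAD3, replicates 1 to 3. As for HSPA5, replicate 3 was highest in both groups. The means were 13.61 ± 0.48 and 13.64 ± 0.23 (SD, n = 3), a difference of 0.02 (SE 0.26), and within the experiments the difference was 0.12, 0.24 and -0.28. Without si-Control replicate 3 it was 0.30, and without si-Control replicate 1 it was -0.13, so that single arrays set its sign.

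HYOU1 was also the only family gene with more than 1 probe set. Of its 23 probe sets, 18 had means above the filter, between 4.68 and 13.63. Of these 18, 17 had higher and 1 had lower group means in si-SMAD3, with differences from -0.06 to 0.41 and a median of 0.24, and in all 18 the groups overlapped. The brightest probe set, used above, lay near the low end of this range. Replicate 3 was the highest of the si-Control arrays in 15 of the 18 and of the si-SMAD3 arrays in 14. The differences were above 0 in 14 of the 18 in the experiment of replicate 1, 16 in that of replicate 2 and 11 in that of replicate 3. By its name on the array the brightest is a transcript cluster, and the others are marked as unmapped. All 23 are assigned to HYOU1 by the platform's gene table and share the 6 RNA samples, so they are not replicates of the comparison. Whether the unmapped ones measure HYOU1 alone was not tested. Averaging all 23 gave a difference of 0.20.

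**Figure D1:**
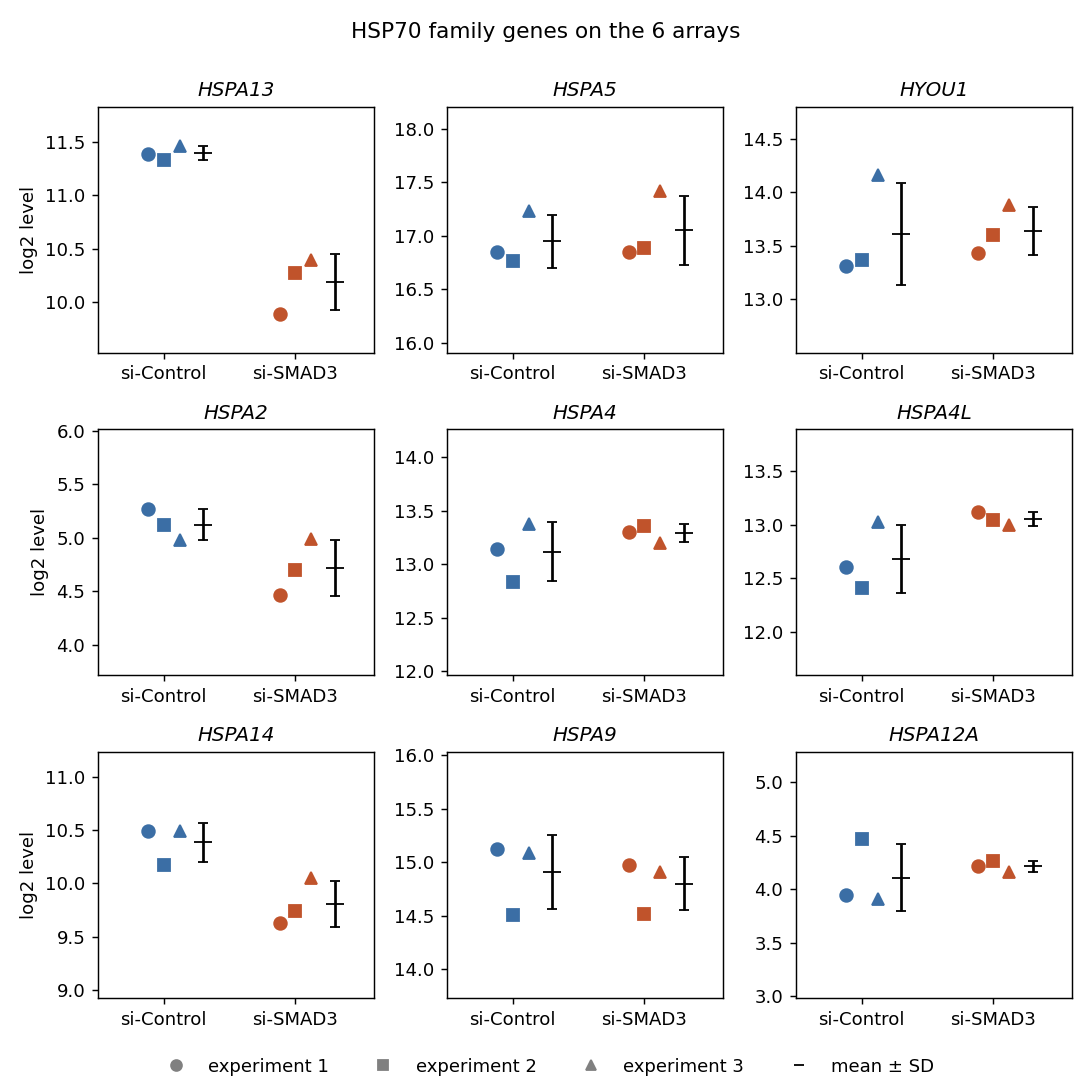
Log2 level (y axis, each panel spanning the same width of the log2 scale around its own centre) of the 9 HSP70 family genes on the 6 arrays. Symbols mark the experiment and bars the mean ± SD of the 3 arrays of a group; in HSPA13 and HSPA14 every si-SMAD3 array lies below every si-Control array, and in the other 7 the groups overlap.

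**Figure D2:**
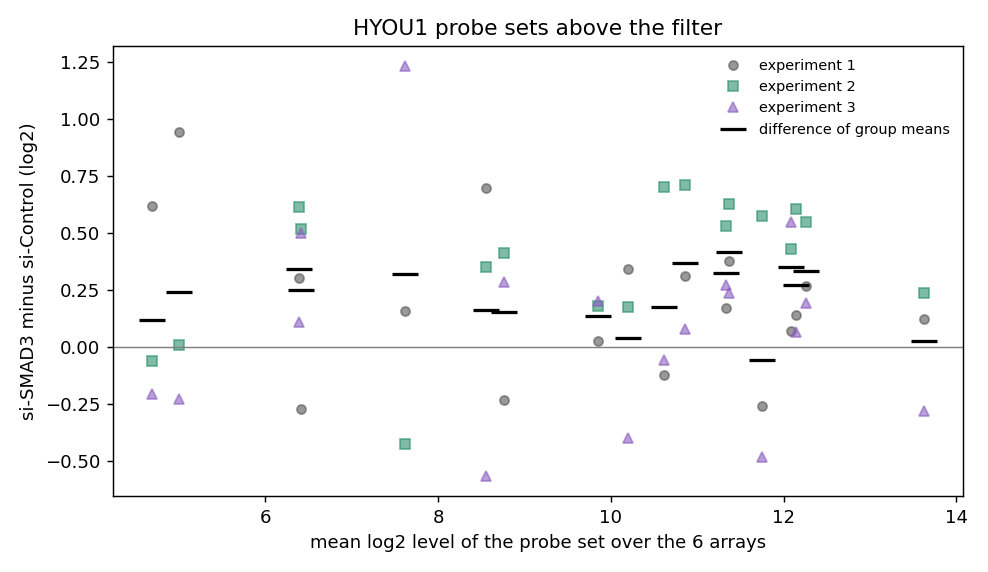
Difference si-SMAD3 minus si-Control (y axis, log2) for each of the 18 HYOU1 probe sets above the filter, against the probe set's mean log2 level (x axis). Symbols are the 3 experiments and black bars the difference of group means, which is above 0 in 17 of 18 and near 0 in the brightest.

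HSPA14, which works with the J-domain protein DNAJC2 as the ribosome-associated complex on nascent chains, was the other gene whose groups did not overlap. Its log2 level was 10.49, 10.17 and 10.49 in si-Control and 9.63, 9.74 and 10.05 in si-SMAD3, replicates 1 to 3. The highest si-SMAD3 array lay just below the lowest si-Control array. The means were 10.38 ± 0.19 and 9.81 ± 0.22 (SD, n = 3), a difference of -0.58 (SE 0.20), with -0.86, -0.43 and -0.44 within the experiments. Its partner DNAJC2 differed by -0.17 (SE 0.24, adjusted p = 0.99 by limma), with overlapping groups; it is named here for its link to HSPA14, after its values were seen.

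HSPA2 is best known from male germ cells, where it is needed for meiosis. Its log2 level was low, at 5.27, 5.12 and 4.98 in si-Control and 4.46, 4.70 and 4.99 in si-SMAD3, replicates 1 to 3. Replicate 3 was nearly equal in both groups, and the other pairs were lower in si-SMAD3. The means of 5.12 ± 0.15 and 4.72 ± 0.26 (SD, n = 3) differed by -0.41 (SE 0.20), and within the experiments by -0.81, -0.42 and 0.01. Without both replicate 1 arrays the difference was -0.21, and without both replicate 3 arrays it was -0.61.

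HSPA4 and HSPA4L are relatives of the HSP110 type that act as exchange factors in the cytosol. HSPA4L was at 12.61, 12.41 and 13.02 in si-Control and 13.12, 13.05 and 12.99 in si-SMAD3, replicates 1 to 3. The si-SMAD3 arrays lay close together, and the si-Control replicate 3 array lay among them. Its means of 12.68 ± 0.32 and 13.05 ± 0.06 (SD, n = 3) differed by 0.37 (SE 0.21), and within the experiments by 0.51, 0.64 and -0.03. HSPA4 was at 13.14, 12.83 and 13.38 in si-Control and 13.31, 13.36 and 13.20 in si-SMAD3, with means of 13.12 ± 0.27 and 13.29 ± 0.08 (SD, n = 3). The si-Control replicate 3 array was the highest of the 6, and the si-SMAD3 arrays lay between it and the other si-Control arrays. The difference was 0.17 (SE 0.20), with 0.16, 0.53 and -0.18 within the experiments, and was -0.01 without both replicate 2 arrays.

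HSPA9 (mortalin) pulls proteins through the inner mitochondrial membrane and helps to build iron-sulfur clusters. It was at 15.13, 14.50 and 15.09 in si-Control and 14.97, 14.52 and 14.91 in si-SMAD3, replicates 1 to 3. Both replicate 2 arrays, those apart on the first principal component, were the lowest of their groups, and the groups overlapped. The means of 14.91 ± 0.35 and 14.80 ± 0.25 (SD, n = 3) differed by -0.11 (SE 0.24). The difference was 0.04 without si-SMAD3 replicate 2 and -0.31 without si-Control replicate 2.

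HSPA12A, a distant relative with an atypical ATPase domain, was near the filter on every array. It was at 3.95, 4.47 and 3.91 in si-Control and 4.22, 4.26 and 4.16 in si-SMAD3, replicates 1 to 3. The si-SMAD3 arrays lay within the range of the si-Control arrays. The difference of 0.10 (SE 0.21) was 0.27, -0.21 and 0.25 within the experiments.

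**Figure D3:**
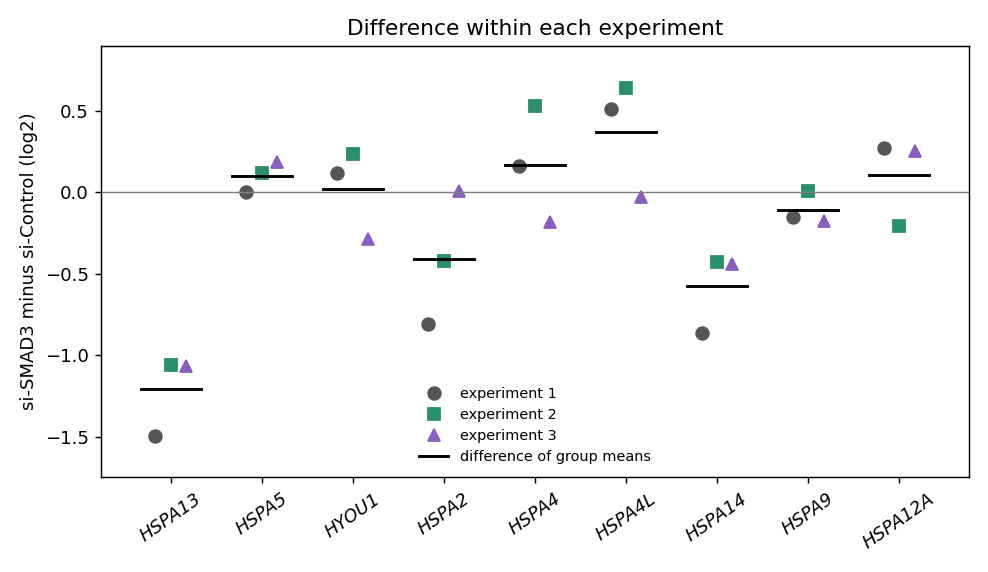
Difference si-SMAD3 minus si-Control on the log2 scale (y axis) within each of the 3 experiments (symbols) and between group means (black lines) for the 9 genes. HSPA13 and HSPA14 lie below 0 in all 3 experiments, HSPA5 lies at or just above 0 in all 3, and the other 6 change sign between experiments.

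Over the 9 genes, 4 had lower and 5 had higher group means after knockdown. The median difference was 0.02, as for all 20590 genes tested (0.02), and the median size of the difference was 0.17 in both. The si-SMAD3 arrays all lay below the si-Control arrays for 2 of the 9 genes, against 5.28% of all genes tested, and all above for 0 of the 9, against 5.75%. The difference was negative in all 3 experiments for 2 of the 9 (13.4% of all genes) and positive in all 3 for 1 (14.5%). HSPA13 was among the 72 genes of 20590 whose difference exceeded 1 in size. As the genes were listed with these values known, nothing is read from these shares.

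Levels were also compared between the experiments, a contrast that the choice of genes did not use. In limma's fit of group plus experiment, chosen after seeing the data, none of the 9 genes differed between the 3 experiments at an adjusted p under 0.05, where 0% of all genes passed. At an unadjusted p under 0.05 it was 0 of the 9 against 8.24% of all genes, and with an intensity trend and robust variance 29 genes passed, none of them in the family. The smallest adjusted p belonged to HYOU1 (0.62), with experiment means of 13.37, 13.48 and 14.02. It was followed by HSPA9 (0.64), with means of 15.05, 14.51 and 15.00, and HSPA5 (0.66), with means of 16.85, 16.82 and 17.33. Replicate 3 was highest in both groups for 4 of the 9 genes, HSPA13, HSPA5, HYOU1 and HSPA14, and this held for 12.6% of all genes tested. Replicate 2 was lowest in both groups for HSPA9 alone, and for 14.8% of all genes tested.

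Other chaperone genes were described from 8 lists. Of the 112 genes listed, 105 had a probe set with a single name, and 100 of them passed the filter. None passed the adjusted threshold by limma, against 0.00486% of all genes tested, and the smallest adjusted p was 0.80. An unadjusted p under 0.05 was reached by 4 higher genes (2.71% of all genes tested) and by 2 lower genes (3.03%), together 6% of those in the lists beside 5.74% of all genes. The intensity trend fit likewise called none of them. Beside the counts above and below 0 given for each list, 10874 of all 20590 genes tested lay above 0 and 9701 (47.1%) below. Some genes are in more than 1 list, so the counts of different lists are not independent. Of the 24 list genes named below, leaving out an array or an experiment moved the difference of 18 by over 1.5 times; the other 6 were DNAJB4, DNAJB5, DNAJC3, BAG3, PTGES3 and UBQLN4.

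Of the other HSP70 genes only HSPH1, the abundant cytosolic exchange factor, was tested. It was at 16.15, 15.25 and 16.31 in si-Control and 16.36, 15.56 and 16.32 in si-SMAD3, replicates 1 to 3. Both replicate 2 arrays were the lowest of their groups, as for HSPA9, and the difference was 0.18 (SE 0.33, adjusted p = 0.99 by limma). The stress-induced HSPA6 and the genes HSPA7, HSPA1L and HSPA12B had means between 3.16 and 3.77, below the filter, while HSPA1A and HSPA1B share their probe sets and were not analysed here.

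J-domain proteins, which bring clients to HSP70 and start ATP hydrolysis, showed no common direction. Among the 41 tested, the difference was above 0 for 22 and below 0 for 19, the median was 0.03, and none passed. The 4 with the smallest p were DNAJB4 (difference 0.53, SE 0.19), DNAJC21, which takes part in maturing the large ribosomal subunit (-0.55, SE 0.21), DNAJC3, an ER partner of HSPA5 (0.50, SE 0.20), and DNAJB5 (0.51, SE 0.21). By limma, the adjusted p of these 4 genes was 0.81 to 0.86. DNAJB4 was at 9.50, 9.39 and 9.42 in si-Control and 10.14, 9.75 and 10.01 in si-SMAD3, so that its groups did not overlap; the same held for the other 3. Across the list the groups did not overlap for 6 higher and 2 lower genes of 41, beside 5.75% and 5.28% of all genes tested.

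Exchange factors outside the family were 4 above and 5 below 0 of 9 tested, with a median of -0.06, and none passed. BAG3, which couples HSP70 to selective autophagy, was at 13.44, 13.19 and 13.60 in si-Control and 14.11, 13.85 and 13.72 in si-SMAD3. All its si-SMAD3 arrays were above its si-Control arrays, with a difference of 0.48 (SE 0.20, adjusted p = 0.86 by limma). SIL1, the other exchange factor of HSPA5, differed by 0.27 (SE 0.31), the mitochondrial factor GRPEL1 by 0.14 and HSPBP1 by -0.19. Leaving out si-Control replicate 3 gave -0.02 for HSPBP1, and leaving out si-Control replicate 2 gave -0.40.

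Of 10 tested genes of HSP90 and the adaptors that link it with HSP70, 7 lay above and 3 below 0, with a median of 0.01. HSP90AB1, the constitutive cytosolic HSP90, differed by -0.49 (SE 0.24), the immunophilin FKBP5 by -0.46 (SE 0.27), the HSP90 co-chaperone PTGES3 by -0.23 and the ubiquitin ligase STUB1 by 0.18, with adjusted p between 0.88 and 0.97 by limma. Of 25 genes of ER folding and the unfolded protein response, 12 lay above and 13 below 0, with a median of -0.0009, and none passed. After DNAJC3, the smallest p belonged to the stress sensors EIF2AK3 (-0.41, SE 0.23) and ERN1 (-0.30, SE 0.21) and to the transcription factor gene XBP1 (0.29, SE 0.21), with adjusted p from 0.91 to 0.94 by limma. Without si-Control replicate 3 the difference was -0.25 for EIF2AK3 and -0.13 for ERN1.

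Of 16 genes of mitochondrial import and folding, the setting of HSPA9, 12 lay above and 4 below 0, with a median of 0.06. DNLZ, which keeps HSPA9 from aggregating, differed by -0.43 (SE 0.21), the import receptor gene TOMM20 by 0.31 (SE 0.19), the co-chaperonin gene HSPE1 by 0.44 (SE 0.33) and TIMM44, the anchor of HSPA9 at the import channel, by 0.21 (SE 0.19). Leaving out si-Control replicate 2 gave 0.16 for HSPE1, and leaving out si-Control replicate 3 gave 0.79. Of 13 targets of heat shock factor 1, 10 lay above and 3 below 0, with a median of 0.07. BAG3, HSP90AB1 and HSPE1 lead that list too, followed by DNAJB1 (0.26, SE 0.22). None of these genes passed by limma, with adjusted p from 0.86 to 0.96.

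Of 8 genes of chaperone-linked degradation, 4 lay above and 4 below 0, with a median of 0.06, and none passed. UBQLN4, a ubiquilin that carries ubiquitinated proteins to the proteasome, was at 10.62, 10.38 and 10.81 in si-Control and 9.97, 9.87 and 10.09 in si-SMAD3, replicates 1 to 3. Its groups did not overlap, and its difference of -0.63 (SE 0.19) had the smallest adjusted p of the 8 lists (0.80 by limma). The ATPase VCP differed by 0.18, STUB1 by 0.18 and UBQLN1 by 0.21 (SE 0.26).

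**Figure D4:**
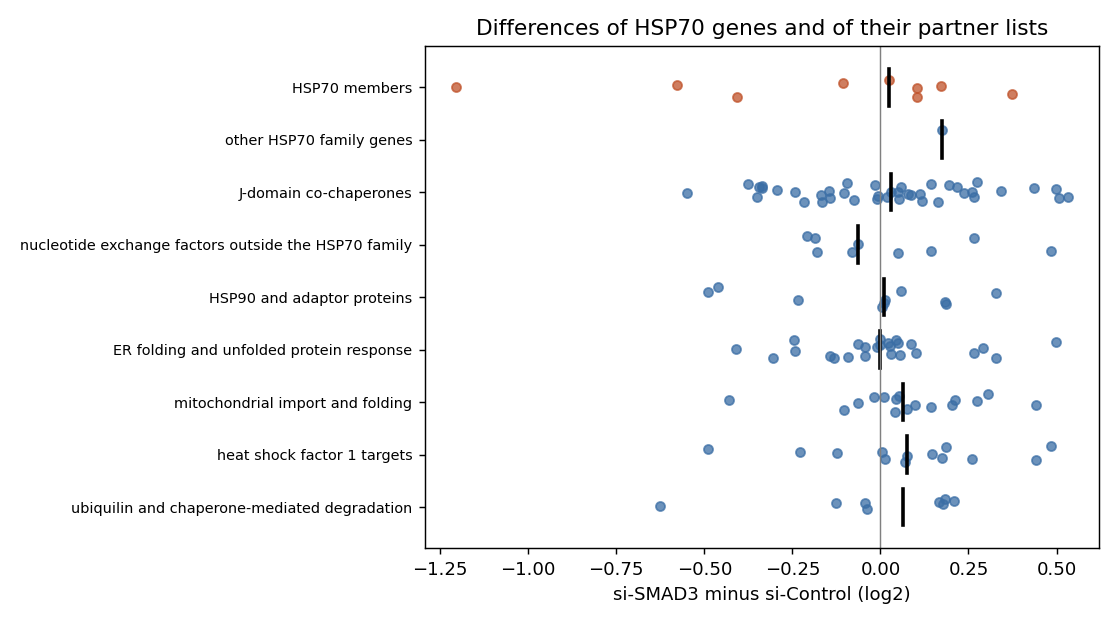
Difference si-SMAD3 minus si-Control of group means (x axis, log2) for the 9 HSP70 family genes (top line) and for the tested genes of the 8 chaperone lists; points are genes, spread vertically for legibility, and black bars are medians. The medians lie between -0.06 and 0.18, and the lowest point is HSPA13 at -1.21.

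The genes whose log2 levels followed HSPA13 most closely over the 6 arrays were SCARA3 (Pearson's r = 0.990), PHF10 (0.989) and TRMT2B (0.989), with differences of -0.22, -0.43 and -0.70. For HSPA5 they were KYNU (0.989), the pseudogene RN7SL502P (0.987) and KLK14 (0.984), with differences between 0.07 and 0.14. Of the 20581 other genes tested, 46 reached an r above 0.95 with HSPA13 and 33 with HSPA5. With 6 arrays that share 3 experiments, unrelated genes can reach such values too, so these values are a description of these arrays only. HSPA13 levels differed mainly between the groups, so genes chosen for following it are lower after knockdown through that choice.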

How the data were processed

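Per the submitters' processing notes, the authors used RMA in Affymetrix Expression Console, and the deposited values are log2 levels for 138745 probe sets on each array. The software version and the build behind the array's annotation are not stated there. The platform's gene table gives a single symbol for 36176 probe sets and several for 1119; another 101450 are not in it. Symbols were updated through a RefSeq gene table of GRCh38.p14. The highest value, 19.93, is a ceiling that none of the 9 HSP70 genes reached. In all, 15 genes, 13 of them at the ceiling, have the same value on every array, and this lack of variance enters limma's estimate of the prior variance; without them 1179 genes in place of 1182 had an unadjusted p under 0.05. The values spread more widely than is usual for RMA, so differences hold on the deposited scale only. Probe sequences were not used, so signal shared between close relatives was not tested.

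Genes with a mean below 3.93 were left out, leaving 20590. The test was limma's moderated test (limma 3.58.1, R 4.3.3), 2-sided, without further terms, with Benjamini-Hochberg adjustment over these genes and a threshold of 0.05. The procedure was tested on simulated data. For the comparison of the groups these had independent noise on each array and no experiment effect. They therefore do not show how the test performs where experiments differ. The p-values measure the spread between 3 arrays a group, which limits the precision of every value. The HSP70 genes, the lists and the tests were chosen with earlier results of these data known. Named genes are the 9 HSP70 genes, SMAD3, the 4 genes with the smallest p in each list and the 3 genes most like each of HSPA13 and HSPA5. Outside this rule, the cell type markers, DNAJC2, the genes below the filter and the genes called with an intensity trend are also named.

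The replicate number is taken to mark a shared experiment, from the titles and the design text, which states 3 separate experiments; the titles alone do not say so. Across genes, departures from the group means correlated at 0.15, 0.22 and 0.05 for arrays with the same number, and for arrays with different numbers between -0.18 and 0.06, a range that holds the value for replicate 3. Alternatives were the replicate number as a block, an intensity trend with robust variance, no filter, the mean of a gene's probe sets, quantile normalization and leaving out arrays or experiments. For the HSP70 genes, group medians in place of means were used in place of the intensity trend. They gave the HSPA14 difference of -0.75.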

Additional observations from a re-analysis of the deposited data

How the results depend on the processing

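Under the 14 alternatives tried on each HSP70 gene, every difference moved by less than 1 SD between replicates. This is a weak check, since with 3 arrays a group leaving out 1 array cannot move a difference by as much as this SD. The block and the absence of a filter leave a difference unchanged by construction. So does the mean of probe sets for a gene with 1 probe set. HSPA13 ran from -1.31 to -1.06, HSPA14 from -0.75 to -0.43, HSPA2 from -0.61 to -0.21, HSPA4L from 0.24 to 0.58 and HSPA12A from 0.00 to 0.29; HSPA5 (-0.08 to 0.25), HYOU1 (-0.13 to 0.30), HSPA9 (-0.31 to 0.04) and HSPA4 (-0.01 to 0.35) crossed 0 under at least 1 of them. The median of the 9 genes ran from -0.10 to 0.10. With the replicate block 1 gene passed the threshold, SMAD3 with a difference of -4.06, and the block changed no other call. With an intensity trend and robust variance 5 genes passed, SMAD3, VAMP7, BEX3, FERMT2 and PRKAA1, each lower after knockdown. Without replicate 3 (both arrays) 0 genes passed and SMAD3 differed by -3.90 (adjusted p = 0.076 by limma); over the fits that leave out an array or an experiment the count ran from 0 to 1 and SMAD3 from -4.29 to -3.90. Counts in the lists stayed at 0 in every setting. Of the 24 list genes named above, those that changed sign, none called in any setting, were HSPH1 (-0.15 to 0.44 when arrays or experiments were left out), SIL1 (-0.013 with the mean of its probe sets, and -0.17 to 0.62 when arrays or experiments were left out) and UBQLN1 (-0.034 to 0.46 likewise). The cause was not tested.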
